A study of Mus musculus with 4 samples.

Results

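Dopamine acts on the striatum through receptors that raise or lower cyclic AMP (cAMP) inside its principal cells, the striatal projection neurons. These neurons fall into a D1 type, which carries the D1 receptor and the substance P precursor, and a D2 type, which carries the D2 receptor and enkephalin. The genes described here are 9 well-known parts of that system: the receptors Drd1, Drd2 and Drd3, the G protein subunit Gnal, the G protein regulator Rgs9, the phosphatase inhibitor Ppp1r1b (DARPP-32), the peptide precursors Penk and Tac1, and the retinoic acid receptor Rarb. They were chosen by gene symbol, and all 9 were found once each among the 46983 genes of the count tables.

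The measurements came from single-nucleus RNA sequencing of brain from male C57Black/6 mice aged 3 months. One library was labelled sham control and the others day 1, day 3 and day 7 after permanent middle cerebral artery occlusion (MCAO), a stroke model that closes the artery for good by coagulating it near its origin and dividing it. Each library pooled 3 forebrain hemispheres while nuclei were isolated, so each group held 1 library. The study's methods describe these hemispheres as injured and place the small infarcts of this model in the parietal cortex. There was no replicate check, no p-value is given, and every interval is a 95% interval that covers counting error only.

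Several facts about the libraries precede the results. The labels' surgical protocol names intact cortex as the control tissue, while the design text names forebrain hemispheres for every time point, and the sham control library held 238 striatal projection neuron-like nuclei among 2118. The numbers of nuclei that the study lists per time point fit the files if day 3 and day 7 trade places. The labels were used as deposited, so a direction given for day 3 or day 7 rests on them. After calling, 1018 nuclei were kept for day 1, 3098 for day 3 and 1573 for day 7. The libraries held 23285489 to 42963698 unique molecular identifiers (UMIs), and the median nucleus held 5498 to 11029.5 UMIs, the most in day 1. Between 0 and 3 barcodes were shared by any pair of libraries.

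Nuclei were grouped into classes without using the 9 genes. The class called striatal projection neuron-like held 741 nuclei, and all 12 of its markers were detected in it, with Sh3rf2 and Actn2 among the 10 leading genes. It made up 11.2% of nuclei in sham control (9.92 to 12.7), 7.96% on day 1 (6.37 to 9.79), 9.26% on day 3 (8.27 to 10.3) and 8.58% on day 7 (7.24 to 10.1). In these pooled samples fewer cells of a type and fewer recovered nuclei of that type cannot be told apart. Sub-clustering, again without the 9 genes, gave 271 D1-type-like nuclei, 228 D2-type-like nuclei and 242 nuclei whose subtype was not named. The unnamed nuclei came from 5 sub-clusters. Of these, 79 nuclei were led by genes that include the eccentric striatal markers Casz1 and Otof, 59 by Gpc5, with Rorb and Zfpm2, listed here as cortical markers, and Mertk, a gene known from astrocytes, among the next genes, and 59 by genes such as Stxbp6 and Rgs6. A further 30 were led by oligodendrocyte genes such as St18, Mog and Mobp, and 15 by mitochondrial genes. The subtype names came from other markers, such as Isl1, Ebf1 and Chrm4 for the D1 type and Adora2a, Gpr6 and Sp9 for the D2 type. D1-type-like nuclei were 89, 19, 117 and 46 in sham control, day 1, day 3 and day 7, and D2-type-like nuclei were 84, 28, 73 and 43.

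The 9 genes marked the striatal cells among the 18 neuron classes and neuronal clusters that could be ranked. Levels are given in CPM, the UMIs of a gene per 1000000 UMIs of the class, as the mean of the 4 libraries with the lowest and highest library. Drd2, Gnal, Rgs9, Ppp1r1b, Penk and Rarb had their highest mean in striatal projection neuron-like nuclei. Other neuronal nuclei together held less of 8 of the genes in every library, and Drd3 was the exception. The remaining high levels lay in 3 further groups that shared striatal markers: eccentric striatal neuron-like nuclei (178), an unnamed cluster led by Ntn1 and Drd3 (276), and a small unnamed cluster led by Drd3 and Stac (45).

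**Figure D1:**
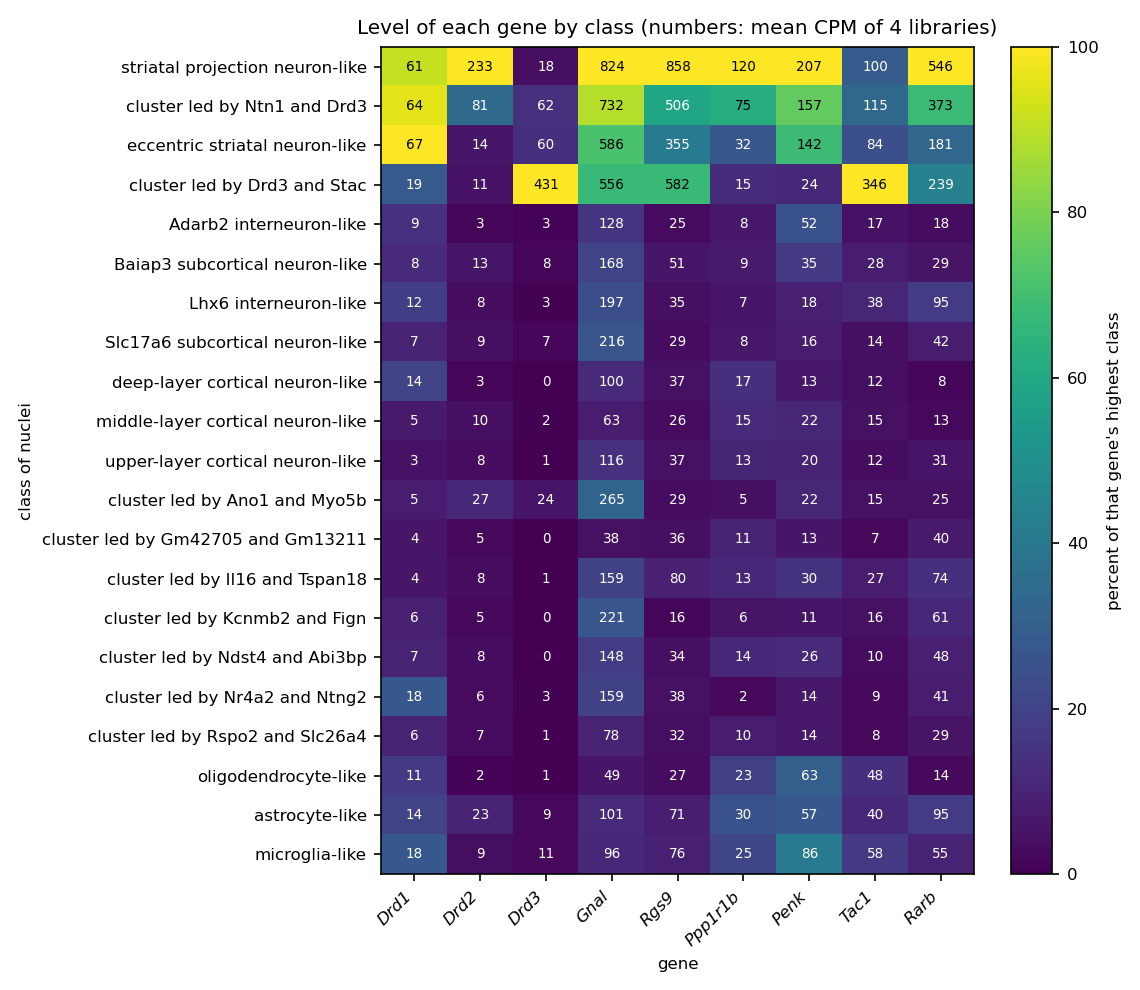
Mean level of the 9 genes (columns) in classes of nuclei (rows): the printed number is the mean CPM of 4 libraries, and the colour is that level as a percent of the same gene's highest class. The top 4 rows, the striatal groups, hold the brightest cell of every column, and Drd3 and Tac1 peak in the cluster led by Drd3 and Stac.

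Drd1, the receptor that raises cAMP through Gnal, stood at 60.6 CPM in striatal projection neuron-like nuclei (45.02 to 66.3). Its level was 66.6 CPM in eccentric striatal neuron-like nuclei (52.4 to 72.5) and 63.8 CPM in the cluster led by Ntn1 and Drd3 (49.1 to 78.6). These 3 ranges overlapped, so their order was within the spread of the libraries. The lowest class was upper-layer cortical neuron-like nuclei at 3.16 CPM.

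Drd2, the receptor that lowers cAMP, was at 233 CPM in striatal projection neuron-like nuclei (205 to 263). The next group, the cluster led by Ntn1 and Drd3, reached 80.9 CPM (51.7 to 104), and the ranges did not overlap. In all other neuronal nuclei together Drd2 stood at 12.3 CPM (9.02 to 18.1), which put striatal projection neuron-like nuclei 18.9-fold higher. Eccentric striatal neuron-like nuclei, which held Drd1 at the level of the projection neurons, had 13.8 CPM of Drd2 (0 to 30.8).

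Drd3, a receptor related to Drd2, had a different order. It reached 431 CPM in the cluster led by Drd3 and Stac (366 to 473), from 8 to 40 UMIs a library. The cluster led by Ntn1 and Drd3 followed with 61.8 CPM (51.7 to 74.2) and eccentric striatal neuron-like nuclei with 59.6 CPM (36.2 to 93.6), and those ranges overlapped. Striatal projection neuron-like nuclei held 18.0 CPM (11.8 to 24.9), on 17 to 61 UMIs per library. Drd3 leads both unnamed clusters by name, so its height there restates how they were labelled.

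Gnal encodes the stimulatory G protein alpha subunit that couples D1 receptors to adenylyl cyclase in striatum. It was at 824 CPM in striatal projection neuron-like nuclei (780 to 856), 732 CPM in the cluster led by Ntn1 and Drd3 (620 to 795), 586 CPM in eccentric striatal neuron-like nuclei (557 to 624) and 556 CPM in the cluster led by Drd3 and Stac (462 to 651). The range of the projection neurons overlapped that of the first of these clusters and stood above the other groups. Outside these groups the highest mean was 265 CPM, in a cluster led by Ano1 and Myo5b (188 to 349).

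Rgs9, which speeds the switching off of G proteins, was at 858 CPM in striatal projection neuron-like nuclei (768 to 923). The cluster led by Drd3 and Stac had 582 CPM (443 to 710) and the cluster led by Ntn1 and Drd3 506 CPM (312 to 649). Neither range reached that of the projection neurons, and all other neuronal nuclei together held 75.8 CPM (53.1 to 110).

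Ppp1r1b, whose product inhibits protein phosphatase 1 once protein kinase A has phosphorylated it, had a narrow range across libraries. It was at 120 CPM in striatal projection neuron-like nuclei (115 to 124) and 74.6 CPM in the cluster led by Ntn1 and Drd3 (53.6 to 96.2). Eccentric striatal neuron-like nuclei had 32.4 CPM (18.7 to 40.3), close to the 29.6 CPM of all non-neuronal nuclei (20.3 to 40.5). A gene on the other strand, 1700003D09Rik, overlaps Ppp1r1b, and the strand used in counting is not given in the sources used here, so the split of reads between them is uncertain. The same holds for Drd3, Gnal, Penk and Rarb, each of which overlaps at least 1 other annotated gene.

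The peptide precursors ranked differently from each other. Penk, the enkephalin precursor, was at 207 CPM in striatal projection neuron-like nuclei (153 to 285), 157 CPM in the cluster led by Ntn1 and Drd3 (142 to 168) and 142 CPM in eccentric striatal neuron-like nuclei (128 to 168), with overlapping ranges. Tac1, the substance P precursor, was at 346 CPM in the cluster led by Drd3 and Stac (250 to 485), 115 CPM in the cluster led by Ntn1 and Drd3 (91.9 to 160) and 100 CPM in striatal projection neuron-like nuclei (85.3 to 109). The Tac1 level of the small cluster rested on 5 to 31 UMIs a library, yet its range lay above those of the other groups.

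Rarb, a nuclear receptor for retinoic acid with a known role in striatal development, was at 546 CPM in striatal projection neuron-like nuclei (444 to 601). It was at 373 CPM in the cluster led by Ntn1 and Drd3 (245 to 452), and the ranges overlapped at their ends. All other neuronal nuclei together had 58.9 CPM (41.4 to 74.4), a 9.26-fold difference.

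Within the projection neurons the receptors and peptides divided by subtype. Drd1 in D1-type-like nuclei was 131, 125, 110 and 121 CPM in sham control, day 1, day 3 and day 7, from 107, 32, 114 and 58 UMIs. In D2-type-like nuclei it was 1.39, 11.2, 12.8 and 4.92 CPM, from 1, 5, 8 and 2 UMIs. Every D1-type library lay above every D2-type library. The ratio of D1 type to D2 type was 94.0 in sham control (16.5 to 3746), 11.1 on day 1 (4.28 to 36.4), 8.55 on day 3 (4.19 to 20.3) and 24.6 on day 7 (6.52 to 208), and the sham control and day 7 ratios rest on 1 and 2 UMIs in the D2 type.

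Drd2 showed the opposite arrangement. It was 501, 443, 477 and 510 CPM in D2-type-like nuclei of sham control, day 1, day 3 and day 7, from 197 to 360 UMIs. In D1-type-like nuclei it was 9.78, 0, 24.98 and 20.9 CPM, from 8, 0, 26 and 10 UMIs. Drd2 was thus 51.2-fold higher in the D2 type in sham control (25.7 to 120), 19.1-fold higher on day 3 (12.8 to 29.7) and 24.4-fold higher on day 7 (13.0 to 51.6). With D1-type nuclei of day 1 set to a floor of 3 UMIs, the log2 ratio of D1 type to D2 type was -5.25 there, a bound.

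The stretches before the start sites of these receptors, taken from RefSeq on GRCm38.p6, are shown because the pair separates the subtypes. Capitals mark the GC box GGGCGG on either strand, which 32.7% of 32851 promoter windows of 27025 genes hold. The Drd1 stretch lies at chr13:54054781-54055030 on the minus strand, in the gene before its downstream start site, and the Drd2 stretch at chr9:49340153-49340402 on the plus strand. A match is a description of the letters only.
Drd1: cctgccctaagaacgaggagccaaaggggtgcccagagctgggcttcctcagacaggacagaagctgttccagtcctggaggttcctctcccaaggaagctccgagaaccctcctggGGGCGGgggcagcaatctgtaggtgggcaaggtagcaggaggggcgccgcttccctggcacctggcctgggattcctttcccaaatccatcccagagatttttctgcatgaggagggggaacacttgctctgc
Drd2: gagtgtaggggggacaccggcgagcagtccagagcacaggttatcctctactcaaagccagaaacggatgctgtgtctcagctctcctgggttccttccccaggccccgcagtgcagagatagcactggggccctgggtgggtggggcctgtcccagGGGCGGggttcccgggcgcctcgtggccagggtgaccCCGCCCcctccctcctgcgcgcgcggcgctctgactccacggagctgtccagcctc

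The peptides followed the receptors. Tac1 was 181, 179, 166 and 161 CPM in D1-type-like nuclei and 19.5, 33.7, 16.0 and 12.3 CPM in D2-type-like nuclei of sham control, day 1, day 3 and day 7. The D1 type was 9.28-fold higher in sham control (5.36 to 17.4), 5.31-fold on day 1 (2.91 to 10.2), 10.4-fold on day 3 (5.51 to 22.0) and 13.1-fold on day 7 (5.37 to 41.4). The 2 subtypes did not overlap in any library.

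Penk was 431, 544, 410 and 340 CPM in D2-type-like nuclei and 47.7, 27.2, 42.3 and 10.5 CPM in D1-type-like nuclei of sham control, day 1, day 3 and day 7. The D2 type was 9.05-fold higher in sham control (6.47 to 13.0), 20.0-fold on day 1 (9.55 to 50.2), 9.70-fold on day 3 (7.02 to 13.7) and 32.5-fold on day 7 (13.6 to 102). The D1-type values were below those of oligodendrocyte-like nuclei, cells not known for enkephalin, which held 72.8, 62.9, 75.5 and 39.3 CPM of Penk in the same order. Median depth was 8042 to 13705 UMIs in the D1-type nuclei and 1865 to 3087.5 in the oligodendrocyte-like nuclei. With each nucleus thinned to 1000 UMIs, 0 of 89 D1-type nuclei of sham control kept a Penk UMI, which allows a share of up to 3.37% (3 nuclei of the total, the limit used here for any share of 0), and 5.26%, 5.13% and 4.35% did in the day 1, day 3 and day 7 libraries. The oligodendrocyte-like shares were 9.38%, 5.63%, 9.38% and 6.25%, so at equal depth the D1-type share was not above them in any library. The day 7 ratio of Penk to sham control in D1-type nuclei was 0.22 (0.07 to 0.56), from 5 UMIs against 39, and the part of free RNA in it was not tested. The Tac1 of D2-type nuclei likewise stood below the oligodendrocyte-like 62.4, 48.9, 51.3 and 29.5 CPM in every library.

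**Figure D2:**
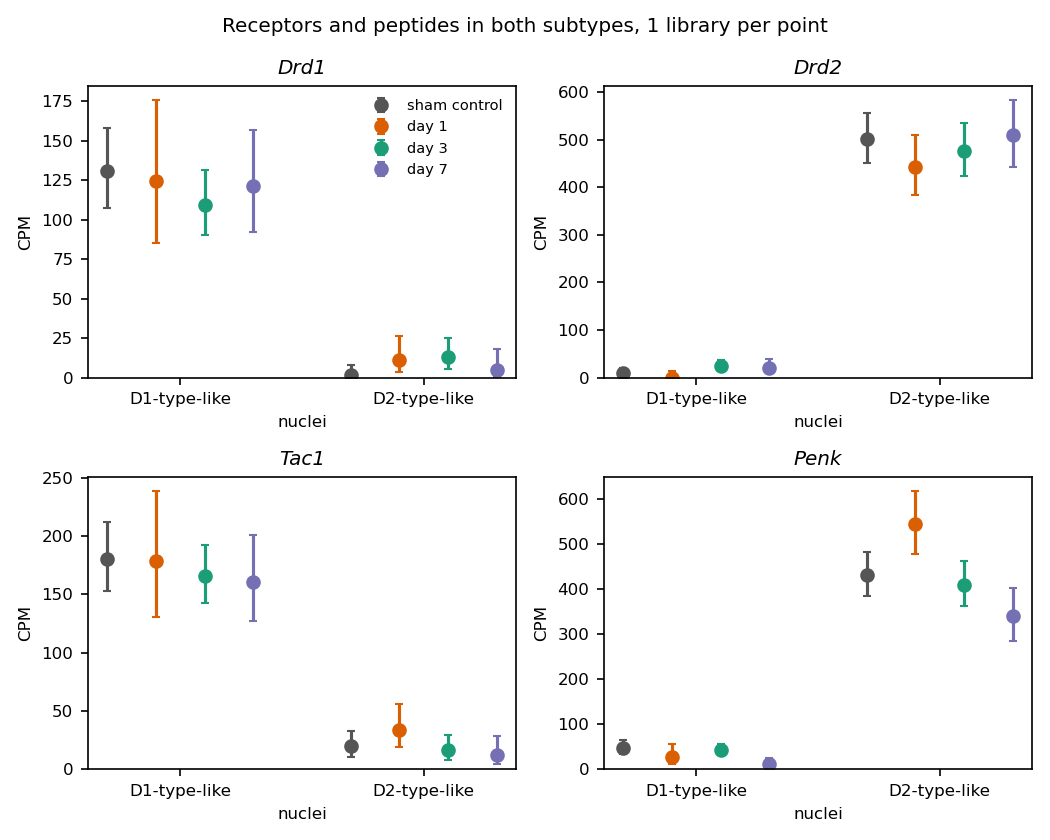
CPM of Drd1, Drd2, Tac1 and Penk (vertical axes, from 0) in D1-type-like and D2-type-like nuclei, 1 point per library with its exact Poisson 95% interval. Drd1 and Tac1 lie high on the left of their panels and Drd2 and Penk on the right, in all 4 libraries.

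A short stretch upstream of Tac1, also from RefSeq on GRCm38.p6 (chr6:7554811-7554878, plus strand), is shown because Tac1 is a gene of the cAMP-raising D1 type. Capitals mark CGTCA, a core of the cAMP response element, which 17.8% of promoter windows hold on either strand. The match shown lies 197 to 193 bases before the start site that RefSeq gives. A second match, 43 to 39 bases before that site, falls in bases not shown here.
Tac1: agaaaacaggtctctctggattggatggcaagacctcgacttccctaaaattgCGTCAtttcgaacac

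The signalling genes downstream of the receptors were shared by the subtypes. Gnal was 842, 767, 827 and 910 CPM in D1-type-like nuclei and 910, 899, 857 and 886 CPM in D2-type-like nuclei of sham control, day 1, day 3 and day 7. Rgs9 was 946, 891, 1036 and 914 CPM in the D1 type and 935, 857, 946 and 948 CPM in the D2 type. The ratio of D1 type to D2 type ran from 0.85 to 1.03 for Gnal and from 0.96 to 1.09 for Rgs9, and none of these 8 intervals left out 1. Ppp1r1b had ratios of 1.28 (0.95 to 1.73), 1.22 (0.77 to 1.91), 1.41 (1.04 to 1.94) and 0.83 (0.55 to 1.27), so that a higher level in the D1 type stood beyond counting error on day 3 alone. Rarb had ratios of 1.15 (1.01 to 1.32), 1.02 (0.82 to 1.26), 0.84 (0.74 to 0.95) and 0.98 (0.83 to 1.16) for the libraries in turn, higher in the D1 type of sham control and lower in that of day 3. With each nucleus thinned to 1000 UMIs, the log2 ratio turned to -0.053 for Ppp1r1b on day 3 and to -0.38 for Rarb in sham control. Drd3 was too sparse to place, with ratios of 0.47 in sham control (0.17 to 1.18), 1.68 on day 3 (0.79 to 3.88) and 2.12 on day 7 (0.61 to 9.28).

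Counted by a fold of 1.5, 5 members differed between the subtypes in sham control, 4 on day 1, 5 on day 3 and 5 on day 7. Of all genes with at least 10 UMIs, 26.8%, 35.6%, 26.7% and 31.9% differed by that fold in the same libraries. By direction, 2, 2, 3 and 3 members were higher in the D1 type, beside 15.3%, 18.5%, 14.1% and 17% of all genes, and 3, 2, 2 and 2 were lower, beside 11.5%, 17.1%, 12.7% and 14.8%. Drd1, Tac1, Drd2 and Penk made up the count in every library, and Drd3 was the remaining gene where there were 5. Subtypes are clusters, so these differences describe the clusters. The 9 genes were not among the features or the naming markers, but the resolution and feature settings of the sub-clustering were chosen after their values had been seen.

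Single nuclei of a named subtype kept the same separation. Of 271 D1-type-like nuclei, 165 had a UMI of Drd1 without Drd2, 8 of Drd2 without Drd1, 6 of both (2.21%, Clopper-Pearson interval 0.82 to 4.76) and 92 of neither. Of 228 D2-type-like nuclei, 199 had Drd2 without Drd1, 2 Drd1 without Drd2, 7 both (3.07%, 1.24 to 6.22) and 20 neither. The share with a Drd1 UMI in D2-type nuclei was 1.19%, 7.14%, 5.48% and 4.65% in sham control, day 1, day 3 and day 7, and 3.12%, 2.50%, 1.83% and 3.12% of oligodendrocyte-like nuclei had one. Median depth was 7281 to 15277.5 UMIs in the D2-type nuclei and 1865 to 3087.5 in oligodendrocyte-like nuclei, so the shares stand at unequal depth. With each nucleus thinned to 1000 UMIs, 1 of 73 D2-type nuclei on day 3 and 1 of 43 on day 7 kept a Drd1 UMI. In sham control 0 of 84 did, which allows up to 3.57%, and on day 1 0 of 28, which allows up to 10.7%.

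Receptor and peptide met in the same nuclei. Drd2 and Penk were both seen in 189 of 228 D2-type-like nuclei (82.9%, 77.4 to 87.5) and in 10 of 271 D1-type-like nuclei (3.69%, 1.78 to 6.68). Drd1 and Tac1 were both seen in 116 of 271 D1-type-like nuclei (42.8%, 36.8 to 48.9) and in 4 of 228 D2-type-like nuclei (1.75%, 0.48 to 4.43). Tac1 and Penk together were seen in 32 D1-type-like and 24 D2-type-like nuclei, 11.8% and 10.5%. In the nuclei whose subtype was not named they were seen together in 55 of 242 (22.7%, 17.6 to 28.5). The share of nuclei with a Penk UMI was 19.1%, 31.6%, 17.9% and 10.9% in the D1 type and 15%, 18.8%, 16.5% and 10.2% in oligodendrocyte-like nuclei, at lower depth. Each of these is a share of nuclei with a UMI, not of nuclei expressing the gene.

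**Figure D3:**
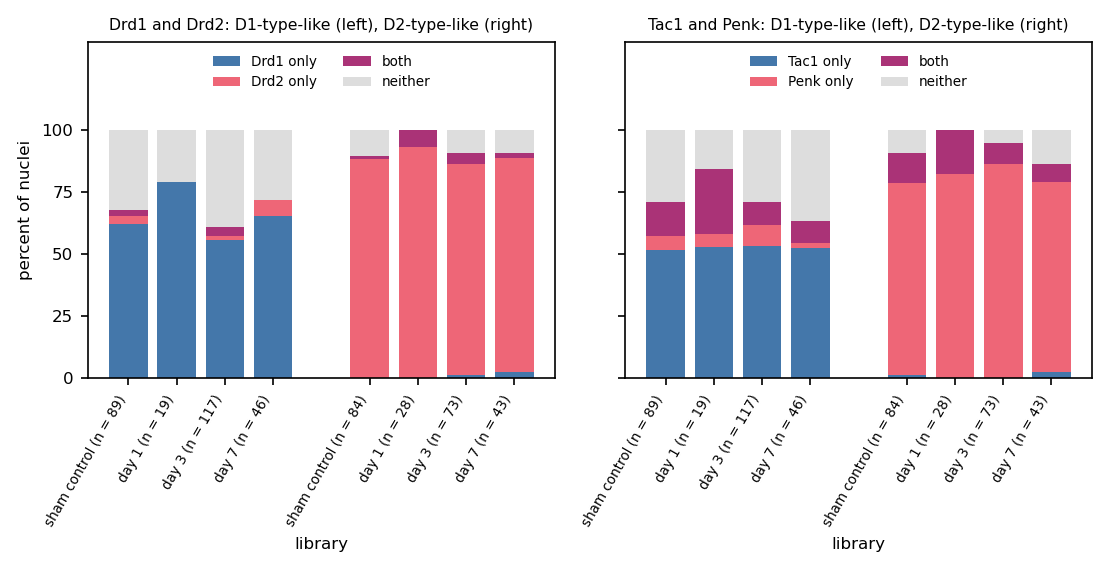
Percent of nuclei (vertical axis) with a UMI of 1 gene, of both or of neither, for Drd1 with Drd2 (left panel) and Tac1 with Penk (right panel), in each library and subtype, with the number of nuclei under each bar. The colour of a single gene changes between the D1-type-like and the D2-type-like bars, and the share with both stays smaller for the receptors than for the peptides.

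The other striatal groups combined the genes in other ways. None of the 178 eccentric striatal neuron-like nuclei had both Drd1 and Drd2 (which allows up to 1.69%), while 57 had Drd1 alone and 6 had Drd2 alone. In the cluster led by Ntn1 and Drd3, 94 of 276 nuclei had Drd1 alone, 64 had Drd2 alone and 9 had both (3.26%, 1.50 to 6.10), and 54 had both Drd1 and Drd3 (19.6%, 15.1 to 24.7). In D1-type-like nuclei Drd1 and Drd3 were both seen in 18 of 271 (6.64%, 3.98 to 10.3). Of the 45 nuclei of the cluster led by Drd3 and Stac, 32 had Tac1, and 28 of those lacked Penk.

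The study places the small infarcts of this model in parietal cortex, and where the striatal nuclei lay relative to them was not known. After occlusion 8 of the 9 genes stood within 1.5-fold of sham control on every day in striatal projection neuron-like nuclei. Penk on day 1 lay just inside it, and past it under 5 of 10 alternatives. Others passed the fold under 1 of 10 alternatives. These were Drd1 on day 3, higher, and Drd2 on day 3, Ppp1r1b on day 7 and Tac1 on day 3 and day 7, lower. Past that fold were 0 of 9 members on day 1, 1 on day 3 and 1 on day 7, and 22.2%, 19.2% and 21.8% of all genes tested. The median log2 ratio of the members was -0.11, -0.04 and 0.02, beside 0.02, -0.04 and -0.04 over all 12573, 13144 and 12451 genes tested. All 3 comparisons share the sham control library.

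**Figure D4:**
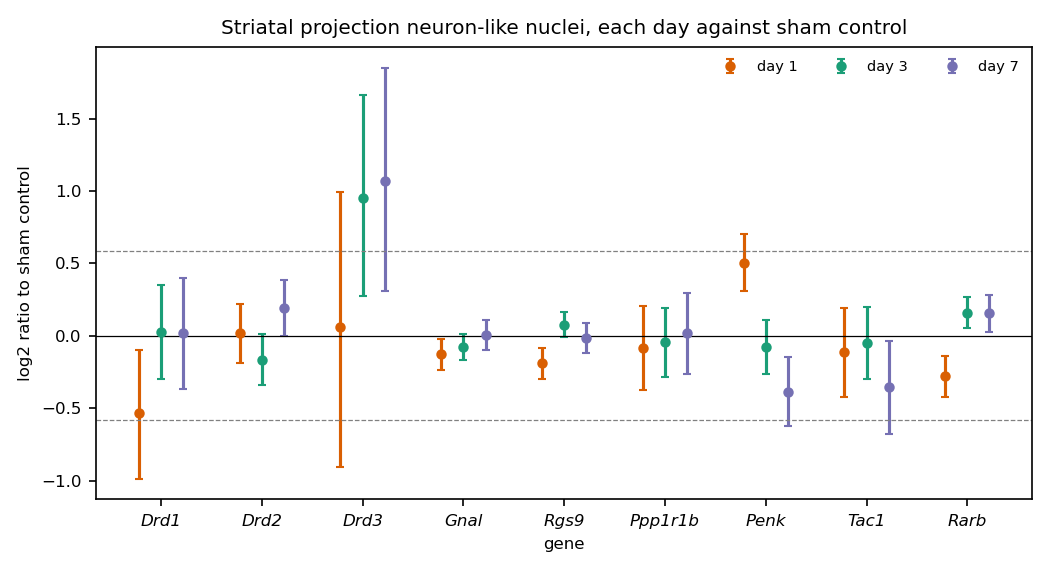
Log2 ratio of each gene's CPM to sham control (vertical axis) in striatal projection neuron-like nuclei, with exact 95% counting intervals, for day 1, day 3 and day 7. Dashed lines mark a fold of 1.5, and the points of Drd3 on day 3 and day 7 alone lie past them.

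Drd1 in all striatal projection neuron-like nuclei was 65.2, 45.02, 66.3 and 66.1 CPM in sham control, day 1, day 3 and day 7. The day 1 library stood below the rest, at a ratio to sham control of 0.69 (0.50 to 0.93). On day 3 the log2 ratio of Drd1 was 0.02 and ran from -0.09 to 0.89 over 10 alternatives, past the fold under 1. D1-type-like nuclei were 23.5% of the class on day 1 and 37.4% in sham control, and within the D1-type-like nuclei the day 1 ratio of Drd1 was 0.95 (0.62 to 1.43). Drd2 was 230, 233, 205 and 263 CPM, with ratios of 1.01 (0.88 to 1.17), 0.89 (0.79 to 1.01) and 1.14 (0.997 to 1.31). Its day 3 log2 ratio was -0.17 and ran from -0.61 to 0.04 over 10 alternatives, past the fold under 1. In D2-type-like nuclei its ratios were 0.88 (0.74 to 1.05), 0.95 (0.81 to 1.11) and 1.02 (0.85 to 1.21), so no day stood apart from sham control beyond counting error.

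Drd3 was the gene past the fold. It was 11.8, 12.3, 22.8 and 24.9 CPM in sham control, day 1, day 3 and day 7, from 27, 17, 61 and 35 UMIs, giving ratios of 1.04 (0.53 to 1.99), 1.93 (1.21 to 3.16) and 2.10 (1.24 to 3.61). The value depended on which nuclei were taken as the class. The cluster led by Ntn1 and Drd3, where Drd3 was several times higher, made up 4.53% of sham control nuclei (3.69 to 5.51), 4.03% of day 1 (2.91 to 5.42), 2.58% of day 3 (2.05 to 3.20) and 3.75% of day 7 nuclei (2.87 to 4.81), so day 3 alone stood apart from sham control. With that cluster added to the class, the log2 ratio of Drd3 was -0.01 on day 3 and 0.25 on day 7, against 0.95 and 1.07 without it, and with libraries merged and not integrated it was 0.06 and 0.05. Within D1-type-like nuclei Drd3 was 9.78 CPM in sham control and 26.9 CPM on day 3 (ratio 2.75, 1.22 to 6.99), on 8 and 28 UMIs, and 28.6% of the day 3 UMIs came from 1 nucleus. Within D2-type-like nuclei it was 20.9, 8.99, 16.0 and 9.85 CPM in sham control, day 1, day 3 and day 7, from 15, 4, 10 and 4 UMIs. Those ratios were 0.43 (0.10 to 1.35), 0.77 (0.31 to 1.83) and 0.47 (0.11 to 1.48), below 1 on each day with intervals that held 1. In the nuclei whose subtype was not named Drd3 was 5.35, 17.8, 22.9 and 40.1 CPM, from 4, 12, 23 and 21 UMIs, and 33.3% of those on day 7 came from 1 nucleus. With only nuclei of a named subtype, 0 members were higher past the fold on day 7.

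Gnal was 853, 780, 807 and 856 CPM in sham control, day 1, day 3 and day 7, and Rgs9 was 876, 768, 923 and 867 CPM. On day 1 both were slightly lower than sham control, at ratios of 0.91 (0.85 to 0.99) for Gnal and 0.88 (0.81 to 0.95) for Rgs9. With each nucleus thinned to 1000 UMIs the log2 ratio of Gnal turned to 0.057, while Rgs9 stayed below 0 under each of 10 alternatives. On day 3 and day 7 their ratios lay between 0.95 and 1.05, with intervals that held 1. Ppp1r1b was 122, 115, 118 and 124 CPM, and its 3 ratios lay between 0.95 and 1.01. With each nucleus thinned to 1000 UMIs its day 7 log2 ratio turned from 0.02 to -0.63, past the fold. The intervals that follow are those of the unthinned ratios. They were 0.77 to 1.15 on day 1, 0.82 to 1.14 on day 3 and 0.83 to 1.23 on day 7, so changes of DARPP-32 mRNA within those bounds were not detectable at this depth.

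Penk was 200, 285, 190 and 153 CPM in sham control, day 1, day 3 and day 7, with ratios of 1.42 on day 1 (1.24 to 1.63), 0.95 on day 3 (0.83 to 1.08) and 0.77 on day 7 (0.65 to 0.90). Day 1 was the highest library and day 7 the lowest. Its day 1 log2 ratio was 0.51 and ran from 0.41 to 0.64 over 10 alternatives, past the fold with means over nuclei, either subtraction of free RNA, merged libraries and named subtypes only. Within D2-type-like nuclei, its main source, the order was the same and the ratios were 1.26 (1.06 to 1.50), 0.95 (0.80 to 1.12) and 0.79 (0.64 to 0.97). Tac1 was 109, 101, 105 and 85.3 CPM, and its day 7 ratio was 0.78 (0.62 to 0.98). On day 3 the log2 ratio of Tac1 was -0.05 and ran from -0.67 to 0.09 over 10 alternatives, lower past the fold under 1. On day 7 it was -0.35 and ran from -0.90 to -0.18 over 10 alternatives, also lower past the fold under 1. Within D1-type-like nuclei the day 7 ratio of Tac1 was 0.89 (0.67 to 1.18), which held 1. Free RNA, measured in barcodes of at most 100 UMIs, moved in the same direction on day 7, with ratios to sham control of 0.76 for Penk (0.69 to 0.84) and 0.65 for Tac1 (0.58 to 0.73), while on day 1 they were 0.95 (0.87 to 1.04) and 0.82 (0.74 to 0.92). The part of free RNA in the results was not tested beyond the subtractions given at the end.

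Rarb was 538, 444, 601 and 600 CPM in sham control, day 1, day 3 and day 7. It was lower on day 1, at a ratio of 0.82 (0.75 to 0.91), and higher on day 3 and day 7, at 1.12 (1.04 to 1.20) and 1.11 (1.02 to 1.22). With each nucleus thinned to 1000 UMIs the day 3 log2 ratio turned to -0.064. In D2-type-like nuclei it went from 516 to 711 CPM on day 3 (ratio 1.38, 1.20 to 1.59) and to 643 CPM on day 7 (1.24, 1.06 to 1.46), whereas in D1-type-like nuclei the ratios were 1.00 (0.89 to 1.13) and 1.06 (0.92 to 1.23). That difference between the subtypes was not itself tested. In the nuclei whose subtype was not named Rarb was 496, 348, 537 and 537 CPM, below the other libraries on day 1, while D1-type-like and D2-type-like nuclei held 541 and 533 CPM on day 1. The unnamed nuclei, which include the sub-clusters led by oligodendrocyte genes, by Gpc5 and by mitochondrial genes, were 41.98% of the class on day 1 and 27.3% in sham control, and the median depth of the class was 15365 and 8352 UMIs.

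A stretch of 30 bases from before the downstream start site of Rarb is shown because the gene carries a well-known retinoic acid response element there, through which its own ligand raises it. It lies at chr14:16575506-16575535 on the minus strand of GRCm38.p6, inside an annotated exon, with the element in capitals, searched as GTTCA repeated after any 6 bases, 52 to 37 bases before the start site. Of 32851 promoter windows in RefSeq, 22 (0.067%) hold that motif on either strand.
Rarb: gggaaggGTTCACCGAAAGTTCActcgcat

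By subtype and the same fold, 1 of 7 members tested lay past it in D1-type-like nuclei on day 1, 2 of 9 on day 3 and 3 of 9 on day 7, beside 28.2%, 25.2% and 30.2% of all genes tested. In D2-type-like nuclei 2 of 8 lay past it on day 1, 0 of 8 on day 3 and 2 of 8 on day 7, beside 30.7%, 26.8% and 30.4%. Every member in these counts was a gene of the opposite subtype or Drd3, with at most 39 UMIs in either library compared. The receptor and peptide proper to a subtype stayed within the fold in each.

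Of 69 other genes of dopamine and cAMP signalling, 60 were tested on day 1, of which 4 were higher and 4 lower past the fold, with a median log2 ratio of -0.15. With each nucleus thinned to 1000 UMIs that median turned to 0.048. On day 3 the counts were 1 higher and 2 lower of 60, and on day 7 they were 1 higher and 2 lower of 59, with medians of 0.01 and 0.00. Of all genes tested, 12.5%, 8.7% and 9.57% were higher past the fold in the order of the days, and 9.69%, 10.5% and 12.2% lower. On day 1 all 7 G protein subunits and regulators, such as Gng7 and Rgs4, were below sham control, none past the fold, at a median log2 ratio of -0.30. On day 3 and day 7, 5 of the 7 were below it, 1 of them past the fold on day 7, at medians of -0.21 and -0.12. Most of the pathway list was also below sham control on day 1, with 43 of 60 genes tested, among them 14 of 18 kinases, phosphatases or substrates. Of the 5 tested genes of dopamine synthesis, transport and breakdown, 4 were above it on day 1, 2 of them past the fold. The 5 phosphodiesterases, which break down cyclic nucleotides, stood within the fold on every day. The retinoid pathway genes tested stood within the fold on each day, with 0 of 3 above sham control on day 1, 4 of 4 on day 3 and 3 of 3 on day 7, at medians of -0.12, 0.43 and 0.24. Of all pathway genes tested, 17 of 60, 31 of 60 and 30 of 59 were above sham control on those days. With only nuclei of a named subtype, 1 member and 2 pathway genes were higher and 1 member and 9 pathway genes lower past the fold on day 1, beside 11.8% and 12.6% of all genes tested in those nuclei. On day 7 in the same nuclei 0 members and 3 pathway genes were higher and 1 pathway gene lower, beside 9.53% and 15.1%.

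A few of these pathway genes stood past the fold with an interval that left out 1, as did 4.85%, 2.77% and 3.21% of all genes tested in the higher direction and 2.39%, 3.01% and 3.32% in the lower, in the order of the days. Oprd1, the delta opioid receptor on which enkephalins act, went from 39.8 to 66.1 CPM on day 1, a ratio of 1.66 (1.23 to 2.24). Rasgrp2, a guanine nucleotide exchange factor of striatum, went from 118 to 78.4 CPM (0.67, 0.53 to 0.84), and Ppp1ca, a catalytic subunit of protein phosphatase 1, from 31.1 to 19.6 CPM (0.63, 0.39 to 0.995). Maob, a monoamine oxidase, rested on 2 and 10 UMIs. Cnr1, the cannabinoid receptor, was 288 CPM in sham control and 183 CPM on day 7 (0.63, 0.55 to 0.73), and Rgs2, a regulator of G proteins, was 37.2 and 22.7 CPM (0.61, 0.39 to 0.93). Sst, a peptide of interneurons, was at 10.9 CPM in sham control and had ratios of 1.79 on day 1 (1.001 to 3.22) and 1.71 on day 3 (1.04 to 2.89). With free RNA subtracted in either way, 0 pathway genes were higher past the fold on day 3.

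Some members also stood out in other classes. Rarb was at 266 CPM in mural or fibroblast-type vascular cell-like nuclei, above its 181 CPM in eccentric striatal neuron-like nuclei and 239 CPM in the cluster led by Drd3 and Stac. Ppp1r1b was at 82.7 CPM in an unnamed non-neuronal cluster led by Ttr and Otx2os1, above its 74.6 CPM in the cluster led by Ntn1 and Drd3.

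In all other neuronal nuclei together, which include the 3 further striatal groups, each of the 9 members was below sham control on each day. Their ratios ran from 0.48 (Rgs9) to 0.82 (Gnal) on day 1, 0.60 (Rgs9) to 0.78 (Ppp1r1b) on day 3 and 0.50 (Drd2) to 0.88 (Gnal) on day 7, with intervals that left out 1 except that of Drd3 on day 7 (0.80, 0.62 to 1.05). The median log2 ratio of the members was -0.70, -0.54 and -0.58, beside 0.02, -0.06 and -0.06 over all genes tested, of which 46.3%, 60.9% and 59.4% were below sham control. Free RNA and the mix of classes also differed between libraries, and their part in this was not tested. Single classes did not all follow. In Slc17a6 subcortical neuron-like nuclei Gnal was above sham control, at ratios of 1.51 (1.10 to 2.10), 1.24 (0.90 to 1.72) and 1.91 (1.41 to 2.62).

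The cortical classes are given for Rgs9 and Gnal, chosen after their values were seen. Ppp1r1b in upper-layer nuclei was also below sham control, at 0.47 (0.22 to 0.97), 0.41 (0.20 to 0.81) and 0.33 (0.11 to 0.84), on 6 to 25 UMIs a library. In upper-layer cortical neuron-like nuclei Rgs9 was 69.0, 10.7, 25.7 and 43.0 CPM in sham control, day 1, day 3 and day 7, with ratios of 0.16 (0.08 to 0.29), 0.37 (0.25 to 0.55) and 0.62 (0.40 to 0.95). All 3 days lay below sham control, where 27.6%, 22.9% and 27.3% of all genes tested differed past 1.5-fold in either direction. In free RNA Rgs9 was 247, 148, 177 and 157 CPM, and in oligodendrocyte-like nuclei 40.3, 15.7, 31.7 and 19.6 CPM, so both moved the same way, and their part in the cortical result was not tested. In deep-layer cortical neuron-like nuclei the Rgs9 ratios were 0.51 (0.31 to 0.81), 1.04 (0.74 to 1.45) and 0.78 (0.51 to 1.18), and in middle-layer nuclei 0.85 (0.47 to 1.49), 0.13 (0.04 to 0.34) and 0.15 (0.02 to 0.60), the last 2 on 5 and 2 UMIs. The cortical classes thus differed in which days lay below sham control. Gnal had ratios of 0.90 (0.70 to 1.16), 0.98 (0.78 to 1.24) and 1.02 (0.78 to 1.34) in upper-layer nuclei and 0.64 (0.49 to 0.82), 0.67 (0.54 to 0.83) and 0.83 (0.65 to 1.05) in deep-layer nuclei. In middle-layer nuclei its ratios were 1.28 (0.86 to 1.88), 0.54 (0.34 to 0.83) and 0.28 (0.10 to 0.64), the last on 6 UMIs.

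Free RNA held the 9 genes in 2 patterns. The CPM of free RNA over that of all called nuclei was 7.28 to 10.2 for Penk, 6.86 to 9.97 for Tac1, 4.67 to 5.99 for Ppp1r1b and 2.92 to 4.18 for Drd1 across the libraries. These genes span 5289, 10956, 9393 and 4523 bases of the genome. For Rgs9 the ratio was 1.04 to 1.17, for Gnal 0.70 to 0.83, for Drd3 0.16 to 0.51, for Drd2 0.20 to 0.43 and for Rarb 0.33 to 0.41, and these span 72775, 138577, 68907, 67551 and 388318 bases. No gene of the second set reached the ratio of any gene of the first. Counting included intronic reads, and annotated spans are from GENCODE vM21.

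**Figure D5:**
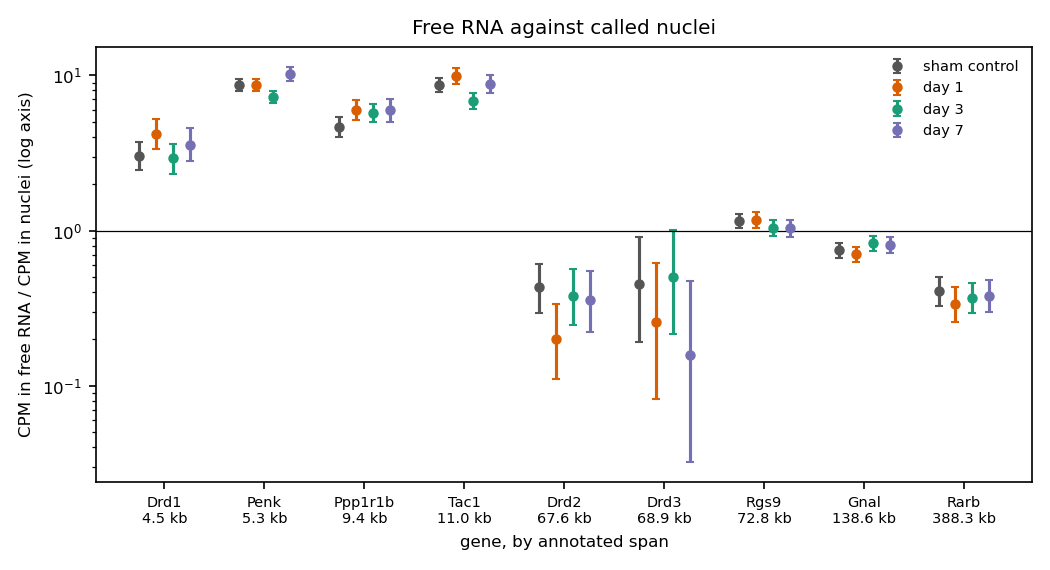
CPM in free RNA (barcodes of at most 100 UMIs) divided by CPM in called nuclei (vertical log axis), with exact 95% counting intervals, for the 9 genes ordered by annotated span in kb. The 4 genes on the left all lie above 2.9 in each library, and the 5 on the right lie below 1.2.

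The genes whose pattern across neurons was most like that of each member were named by correlation. Likeness was Pearson's r of log2(CPM + 1) over 66 sums of a class in a library, from 18 classes and clusters that share libraries and depth, and it is given with no p. Drd2 was most like Adora2a, the adenosine receptor of the D2 type (r = 0.79), and Tac1 was most like the orphan receptor Gpr149 (0.81). Rgs9 was most like Adcy5, the main adenylyl cyclase of striatum (0.87), which was also second for Gnal (0.85) and Rarb (0.85) and among the top 3 for Drd3 (0.75) and Tac1 (0.77). Rarb was most like the G protein subunit Gng7 (0.86), and Rgs9 was among its top 3 (0.84). Adcy5, Gng7 and Gpr149 were among the markers that named striatal projection neuron-like nuclei, and Adora2a among those that named the D2 type. Their likeness to the members is thus not independent of the class names. Gnal was most like Stox2 (0.85), and was itself the closest gene to Drd3 (0.75) and Penk (0.77). Drd1 was most like the phosphodiesterase Pde1b (0.73), followed by Lppr1 (0.70) and Filip1 (0.69), and Ppp1r1b was most like the phosphatase subunit Ppp2r2a (0.78), with the overlapping 1700003D09Rik among its top 3 (0.74). The remaining names were Tbc1d8 and RP23-15K8.1 for Drd2 (0.73 and 0.72), 4932418E24Rik for Drd3 (0.75), Rarb for Gnal (0.81) and for Rgs9 (0.84), Mhrt for Rgs9 (0.83), Fgf14 for Ppp1r1b (0.77), Nsg2 and Bcr for Penk (0.77 and 0.76) and Pcp4l1 for Tac1 (0.80).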

How the data were processed

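Single-nucleus RNA sequencing was examined in 4 libraries, 1 per group, taken from the labels alone. The authors deposited raw UMI counts per gene and barcode, with no normalization and no filter on barcodes. Per the labels and the study's methods, 10x 3' reads were mapped to GRCm38 with STAR 2.7.3a and exonic and intronic reads were counted against GENCODE vM8. The strand used in counting is not given in the sources used here. From these counts, nuclei were called with a re-implementation of emptyDrops (ambient profile below 1000 UMIs, 10000 Monte Carlo draws, FDR 0.001). Doublets were marked with Scrublet scores (0.8% per 1000 nuclei) and removed after clustering, which took out 37, 8, 81 and 20 nuclei of sham control, day 1, day 3 and day 7. Total UMIs were 28195551, 23285489, 42963698 and 25033355, and precision is limited by the UMIs behind each value.

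Libraries were integrated and clustered in Seurat 5.3.0 (R 4.3.3, SCTransform, 30 components, resolution 0.8), leaving 86 genes, the 9 members and the pathway and immediate-early lists, out of the features. Clusters were named from marker lists. A cluster stayed unnamed where another class had more markers among its 10 leading genes. Striatal projection neuron-like nuclei were sub-clustered at resolution 1.2 (15 components, 1995 features), settings chosen after values of the members had been seen. UMIs were summed per class and library. CPM has an exact Poisson interval, a ratio an exact conditional binomial interval and a share a Clopper-Pearson interval, all at 95%, and a share of 0 is given with the limit of 3 nuclei. Genes with at least 10 UMIs in the 2 sums compared were tested against a fold of 1.5. With 1 library per group no test across samples was possible. The calling and ratio steps were tested on simulated data. Promoter and gene annotations came from RefSeq (GRCm38.p6, 6 of 9 members matched) and GENCODE vM21.

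Alternatives were TMM scaling (edgeR 4.0.16), nuclei over 2000 UMIs, means over nuclei, thinning, subtraction of free RNA, merging without integration, keeping doublets, 30 UMIs per gene and a fold of 2. Those chosen after seeing the data were named subtypes only, adding the cluster led by Ntn1 and Drd3, sub-clustering at resolution 0.8 and naming by marker score alone. The members and lists were chosen with earlier results of these data known. The named genes were all 9 members, the 3 genes most correlated with each, and pathway genes past the fold with an interval that left out 1.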

Additional observations from a re-analysis of the deposited data

How the results depend on the processing

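No paired analysis was possible because each group holds 1 library, and no library can be left out for the same reason. The split of Drd1, Tac1, Drd2 and Penk by subtype kept its direction in each library under each alternative it was recomputed for. In striatal projection neuron-like nuclei the number of members higher past the fold became 1 on day 1 (Penk) with means over nuclei, with either subtraction of free RNA, with libraries merged and not integrated, and with nuclei of a named subtype only, where 1 (Drd3) was also lower. It became 0 on day 3 with means over nuclei, merged libraries, a fold of 2 and the cluster led by Ntn1 and Drd3 added, and 0 on day 7 with merged libraries, named subtypes only and that cluster added. The gene behind a count could change. On day 3 Drd3 was past the fold under 6 of 10 alternatives, and Drd1 was higher past it under 1, at a log2 ratio of 0.89. Thinning made 2 members lower past the fold on day 3 (Drd2 and Tac1) and 2 on day 7 (Ppp1r1b and Tac1). The log2 ratio of Drd3 on day 3 turned to -0.015 with the added cluster. Thinning turned those of Gnal on day 1 to 0.057, Rarb on day 3 to -0.064, Ppp1r1b between subtypes on day 3 to -0.053 and Rarb between subtypes in sham control to -0.38. Thinning also turned the member medians from -0.09 to 0.35 on day 1 and from -0.05 to 0.26 on day 7 in D1-type-like nuclei and from -0.08 to 0.14 on day 3 in D2-type-like nuclei, moved that of day 7 there from -0.01 to -0.35, and left 1 member higher in the D1 type than the D2 type on day 1 and on day 7.

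For the 69 pathway genes, thinning turned the median from -0.15 to 0.048 on day 1 and moved it to 0.13 on day 3, with 8 higher and 6 lower on day 3 and 5 higher on day 7. The number higher was 2 on day 1 with either subtraction of free RNA, a minimum of 30 UMIs, a fold of 2 and named subtypes only. On day 3 it was 3 with means over nuclei, with doublets kept and with the added cluster, 4 with merged libraries, and 0 with either subtraction and with a fold of 2. On day 7 it was 2 with means over nuclei and with the added cluster, 4 with merged libraries, 3 with named subtypes only and 0 with a minimum of 30 UMIs. The number lower was 2 on day 1 with merged libraries and with a fold of 2, and 9 with named subtypes only. On day 3 it was 1 with TMM scaling, means over nuclei and a minimum of 30 UMIs, and 0 with a fold of 2. On day 7 it was 0 with a fold of 2 and 1 with named subtypes only.

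Striatal projection neuron-like nuclei were 13.0% of sham control and 11.0% of day 3 nuclei over 2000 UMIs, and 14.8%, 10.6% and 10.7% of sham control, day 3 and day 7 with merged libraries. In that merge the D1 type was 63.2%, 57.7%, 68.7% and 67.3% of nuclei of a named subtype in sham control, day 1, day 3 and day 7. The causes were not tested. Of 75 log2 values, 25 had the opposite sign after thinning, 4 of them medians, beside 0 to 14 under the other alternatives run on all 75. Thinning moved 46 of 95 results and reversed 5 called ones, merging moved 21 of 103, and the other alternatives moved 1 to 12 each. Sub-clustering at resolution 0.8 moved 2 of 54 values, and naming by marker score alone 4 of 54, with 6 and 4 of 42 log2 values of opposite sign. Drd3, with 17 to 61 UMIs per library in the class, is limited by depth.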

Other observations

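Immediate-early genes, which neurons switch on after activity, were examined in the same striatal projection neuron-like nuclei as a list of 8 (Fos, Fosb, Junb, Egr1, Arc, Nr4a1, Homer1 and Npas4). Their median log2 ratio to sham control was -0.18 on day 1, -0.42 on day 3 and -0.94 on day 7. None of the 8 tested lay past 1.5-fold on day 1, 2 of 8 were lower past it on day 3 and 5 of 7 on day 7, where 9.69%, 10.5% and 12.2% of all genes tested were lower past that fold. The members in the same nuclei had medians of -0.11, -0.04 and 0.02.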
